A study of Mus musculus with 18 samples.

Results

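The 10 genes described here mark endothelial cells, the cells that line blood vessels, and were chosen by symbol from the 25651 genes of the count table: Pecam1, Cdh5, Kdr, Flt1, Eng, Tek, Plvap, Esam, Egfl7 and Cldn5. All 10 were in the table. Of these, 8 passed the filter on low counts that left 6920 genes for testing, and Tek and Cldn5 did not. Pecam1, Cdh5, Kdr and Esam passed only with the help of the KPC libraries, so counts and medians over the 8 are descriptions of the genes that passed and no support for a difference. RNA came from whole pancreas of 18 mice aged 20 weeks, each mouse giving 1 library. The groups were 5 KPC ASC KO mice, 7 KPC mice and 6 wild-type (WT) mice. The name KPC commonly stands for mice engineered to develop pancreatic cancer from the pancreatic epithelium, but the labels do not spell out its alleles, promoter or Cre, nor the ASC allele. ASC is the adaptor protein of inflammasomes and is encoded by Pycard. The study concerns innate immune regulators in cancer of the pancreas, and the animals were on a mixed 129Sv and C57BL/6 background. The labels do not give a tumour stage, sex, litter or batch.

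Endothelial cells respond to vascular endothelial growth factor (VEGF) through the receptor tyrosine kinases Kdr and Flt1. Kdr carries most of the growth signal, while Flt1 binds VEGF tightly, signals weakly and in its soluble form acts as a decoy. Tek is the receptor for angiopoietins and Eng is a co-receptor for ligands of the TGF-beta family. Pecam1, Cdh5, Esam and Cldn5 are adhesion molecules of the contacts between endothelial cells. Plvap builds the diaphragms of fenestrated capillaries, which are the usual capillary type of the exocrine and endocrine pancreas, and Egfl7 is secreted by endothelial cells. In whole tissue, fewer cells of a type and less RNA per cell cannot be told apart.

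The promoters of the VEGF receptors are shown because Flt1 and Kdr, which respond to the same ligand, took different shares of the counts in the 3 groups. The sequences are RefSeq promoters on GRCm38.p6, from 250 bases before to 50 bases after the gene start, read 5′ to 3′ on the strand of the gene. Capitals mark GGAAG, a core of the sites of ETS transcription factors, or its reverse complement CTTCC.
Flt1, chr5:147725962-147726261, minus strand: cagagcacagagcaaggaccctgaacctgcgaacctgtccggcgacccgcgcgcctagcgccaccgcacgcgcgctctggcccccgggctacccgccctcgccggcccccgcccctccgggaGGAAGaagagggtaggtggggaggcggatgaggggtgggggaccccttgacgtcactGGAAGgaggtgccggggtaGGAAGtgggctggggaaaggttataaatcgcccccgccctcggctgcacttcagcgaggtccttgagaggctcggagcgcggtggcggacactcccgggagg
Kdr, chr5:75978406-75978705, minus strand: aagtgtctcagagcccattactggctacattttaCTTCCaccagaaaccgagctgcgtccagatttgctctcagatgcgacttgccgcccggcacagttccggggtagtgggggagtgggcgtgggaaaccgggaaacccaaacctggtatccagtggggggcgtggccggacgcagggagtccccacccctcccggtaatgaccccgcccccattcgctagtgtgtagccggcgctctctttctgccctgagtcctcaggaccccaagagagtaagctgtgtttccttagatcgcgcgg
The Flt1 window held 3 matches and the Kdr window held 1. Promoters were found for 6 of the 10 genes, Cldn5, Egfl7, Eng, Flt1, Kdr and Tek, in 8 windows, and 4 of these 6 genes had a match in at least 1 window. These letters are common, since 71.3% of 32544 RefSeq promoters of the same length held them on either strand. The GATA letters AGATAA were in 1 of the 6 genes against 11.2% of all promoters, and the KLF letters CACCC in 6 of the 6 against 57.7%. The counts are by gene over all its windows, while the percentages are by single promoter, so they are not like for like. Egfl7 had several windows, and those starting at chr2:26580833 and chr2:26586386 held no CACCC. A match is a description of the letters and not a binding site.

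The libraries held 374432 to 647947 counts in KPC ASC KO mice, 452472 to 1626977 in KPC mice and 294077 to 416879 in WT mice. Pycard, the gene targeted in KPC ASC KO mice, measured 5.56 to 34.2 CPM there, against 35.1 to 99.5 CPM in KPC and 45.4 to 65.5 CPM in WT mice, so it was lower in every KPC ASC KO mouse than in any other. The position of the deletion within Pycard is not given in the labels. Here and in what follows, CPM is a gene's count scaled to a common library size, and without further words that size comes from the trimmed mean of M values (TMM), which sets libraries level on the bulk of their genes. A set of 29 acinar digestive enzyme genes, which mark pancreas, took 32.1% to 55.8% of all counts in KPC ASC KO, 4.35% to 39.7% in KPC and 47.7% to 58.1% in WT libraries. The choice of scaling therefore bears on every gene outside that set. With libraries scaled to their total counts alone, the median log2 fold change of all tested genes was 1.30 between KPC and WT mice and -1.05 between KPC ASC KO and KPC mice. With TMM these medians were 0.06 and -0.05. The endothelial genes are given on both scales.

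As a share of all counts, here called CPM of all counts, the 10 endothelial genes together were higher in every KPC pancreas than in any WT pancreas. Their sum was 142, 130, 270, 323 and 123 CPM of all counts in KPC ASC KO mice 318, 335, 377, 384 and 388. It ran from 241 through a median of 478 to 824 CPM of all counts in KPC mice and from 105 through 149 to 184 CPM of all counts in WT mice. The KPC ASC KO mice overlapped both other groups: mice 318, 335 and 388 lay within the WT range, while mice 377 and 384 lay within the KPC range. The acinar enzymes took 55.8%, 53.2% and 52.4% of counts in mice 318, 335 and 388, against 37.9% and 32.1% in mice 377 and 384. The part of acinar content in these shares was not tested.

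After TMM scaling the groups came together. The sum was 247 ± 40.9 CPM in KPC ASC KO (SD, n = 5), 309 ± 75.2 CPM in KPC (SD, n = 7) and 221 ± 38.6 CPM in WT mice (SD, n = 6). The sums ran from 194 to 289 CPM in KPC ASC KO, from 235 to 447 CPM in KPC and from 176 to 277 CPM in WT mice, and all 3 ranges overlapped. The sums rest on 46 to 156 counts per KPC ASC KO library, 109 to 879 per KPC library and 36 to 72 per WT library, so single genes in WT and KPC ASC KO mice rest on few molecules.

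**Figure D1:**
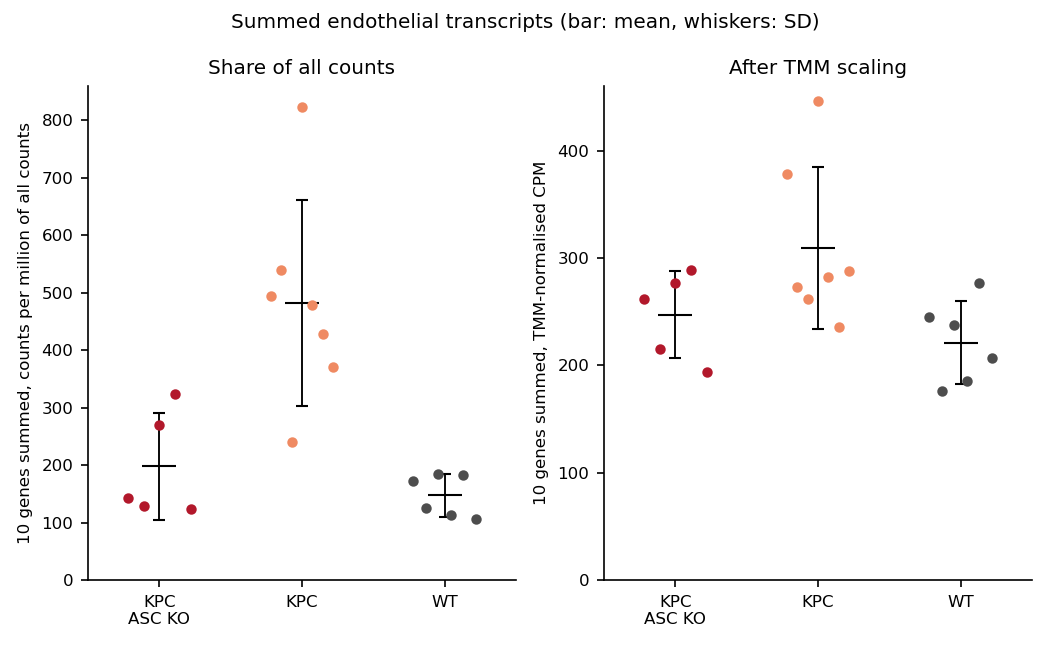
Sum of the 10 endothelial genes in each mouse, as CPM of all counts and as TMM-scaled CPM, for KPC ASC KO, KPC and WT mice; points are mice, bars are means and whiskers are SD. On the scale of all counts the 7 KPC mice (241 to 824) lie above the 6 WT mice (105 to 184), while after TMM scaling all 3 groups overlap.

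Between KPC and WT mice, edgeR's quasi-likelihood test called 1 of the 8 tested endothelial genes at an adjusted p under 0.05, and it was Pecam1, higher in KPC. Over all 6920 tested genes, 29.9% were called, 14.8% higher and 15.1% lower, so the endothelial count was no larger than the background. The median log2 fold change of the 8 genes was 0.48, against 0.06 over all tested genes, and 7 of the 8 were above 0. With total counts as the scale all 8 were called higher, where 76.9% of all tested genes were, with a median of 1.71 beside the shift of 1.30 that all genes showed. Every pair of groups overlapped for every one of the 10 genes in TMM-scaled CPM. How often groups overlap over all tested genes was not computed, so this describes the 10 genes only.

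The VEGF receptors did not pass the test between KPC and WT mice. Both genes lie on the minus strand of GRCm38 chromosome 5, Kdr (ENSMUSG00000062960) at chr5:75932827-75978458 and Flt1 (ENSMUSG00000029648) at chr5:147561604-147726011. Kdr measured 21.6 ± 11.2 CPM in KPC (SD, n = 7) and 15.5 ± 8.73 CPM in WT mice (SD, n = 6), a log2 fold change of 0.52 (SE 0.42, edgeR adjusted p = 0.361). The WT mice ran from 0 to 25.6 CPM, the 0 being mouse 1213, where a count of 0 allows up to 15.5 CPM (3 counts). Flt1 measured 22.3 ± 9.82 CPM in KPC and 25.1 ± 6.23 CPM in WT mice, a log2 fold change of -0.21 (SE 0.35, edgeR adjusted p = 0.698). Flt1 was the single tested gene of the 8 whose estimate lay below 0 with TMM. Its estimate was 0.25 on total counts without acinar enzymes and 0.37 without KPC mice 40, 89, 145 and 154, where that of Plvap was -0.30. KPC mice 145, 154 and 89 had the lowest Flt1, at 9.94, 12.0 and 18.1 CPM, and KPC mouse 43 had the highest, at 37.3 CPM.

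Tek, the angiopoietin receptor, was too low to test with the filter. It had 48 counts over the 7 KPC libraries and 2 over the 6 WT libraries. The ratio of these pooled counts, KPC over WT, was 3.26 per TMM-scaled library size (95% exact interval 0.855 to 27.7) and 8.29 per total count (2.17 to 70.4), with intervals that cover counting error only. In WT mice 4 of 6 libraries had no Tek count, while every KPC library had at least 1, with 1.80 to 9.60 CPM. With no filter on low counts its log2 fold change was 1.85 (SE 0.95, edgeR adjusted p = 0.229).

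Eng, the TGF-beta co-receptor, measured 45.3 ± 10.7 CPM in KPC (SD, n = 7) and 37.3 ± 17.4 CPM in WT mice (SD, n = 6), with a log2 fold change of 0.26 (SE 0.32, edgeR adjusted p = 0.573). Egfl7, the secreted endothelial factor, came near the threshold. Its values ran from 32.3 through a median of 51.7 to 87.7 CPM in KPC mice and from 20.6 through 33.0 to 41.4 CPM in WT mice. All 7 KPC mice lay above the WT mean and 5 of 7 above every WT mouse. The log2 fold change was 0.71 (SE 0.28, edgeR adjusted p = 0.0533), and leaving out KPC mouse 43, 145 or 154 brought the adjusted p to 0.0404, 0.0238 or 0.0233. These had the lowest Egfl7 of the KPC mice, so leaving any of them out raises the difference by construction. Over all 18 such fits the adjusted p ran from 0.0233 to 0.136, and it was under 0.05 in 3.

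Among the adhesion genes, Pecam1 (ENSMUSG00000020717, chr11:106654217-106750628, minus strand), also known as CD31 and carried by platelets and many leukocytes as well as endothelium, was the gene called. Its values were 56.2, 25.2, 14.4, 87.1, 64.6, 51.5 and 39.0 CPM in KPC mice 40, 43, 48, 89, 145, 154 and 210. In WT mice they ran from 5.13 through a median of 20.4 to 37.4 CPM. Of the KPC mice, 5 of 7 lay above every WT mouse, and mice 43 and 48 lay within the WT range. The log2 fold change was 1.23 (SE 0.38, edgeR adjusted p = 0.0175), and it stayed under 0.05 when any single mouse was left out. The call was lost with limma-voom (1.09, adjusted p = 0.184).

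The KPC mice with the highest Pecam1 also carried high leukocyte transcripts. Summed over 8 genes shared by leukocytes, KPC mice 40, 89, 145 and 154 had 1550, 1665, 2071 and 1950 CPM, while KPC mice 43, 48 and 210 had 406, 612 and 663 CPM. The same sum ran from 353 to 794 CPM in KPC ASC KO and from 399 to 554 CPM in WT mice. The 4 KPC mice with the high sums had the 4 highest Pecam1 values, and without these 4 mice the log2 fold change of Pecam1 between KPC and WT was 0.37 (edgeR adjusted p = 0.590). Leaving out the highest Pecam1 values lowers the estimate by construction, so this fit cannot decide on leukocytes. In that smaller fit 12.9% of 5852 tested genes were called, and between KPC ASC KO and KPC mice 0.0171% were, which is 1 gene. Platelet and megakaryocyte genes summed to 19.5 to 53.8 CPM in KPC ASC KO, 21.6 to 64.0 CPM in KPC and 3.40 to 40.4 CPM in WT mice; Treml1 had no count in any KPC or WT library and Gp9 none in any WT library. The part of leukocytes or platelets in the Pecam1 difference was not tested.

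Cdh5, the adhesion molecule of endothelial adherens junctions, measured 28.3 ± 11.3 CPM in KPC (SD, n = 7) and 21.2 ± 16.6 CPM in WT mice (SD, n = 6). Its log2 fold change was 0.55 (SE 0.44, edgeR adjusted p = 0.360), with WT mice spread from 0 to 41.0 CPM. Esam, an adhesion molecule of tight junctions, measured 17.4 ± 4.57 CPM in KPC and 12.9 ± 10.9 CPM in WT mice (0.44, SE 0.46, edgeR adjusted p = 0.496). Cldn5, the endothelial claudin, had 60 counts over the 7 KPC libraries and 1 over the 6 WT libraries, that of mouse 1197. The pooled ratio was 8.15 per TMM-scaled library size (95% exact interval 1.41 to 327) and 20.7 per total count (3.58 to 832). Cldn5 was detected in every KPC library, at 3.002 to 8.99 CPM, but a single count in a WT library is worth 3.40 to 5.16 CPM. With no filter its log2 fold change was 2.96 (SE 1.06, edgeR adjusted p = 0.0517).

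Plvap, the diaphragm protein, did not pass the test. It measured 61.4 ± 23.2 CPM in KPC (SD, n = 7) and 55.3 ± 20.9 CPM in WT mice (SD, n = 6), with a log2 fold change of 0.17 (SE 0.28, edgeR adjusted p = 0.668). The 3′ ends of Plvap, Eng and Egfl7 overlap genes on the opposite strand in the GRCm38 annotation, Gtpbp3 for Plvap, Fpgs for Eng and Agpat2 for Egfl7. Reads came from the 3′ part of transcripts and whether strand was used in counting is not stated, so reads of such a pair may not be separable and the values of these 3 genes are uncertain to that extent. Egfl7 also overlaps Gm20532, a protein-coding gene on the same strand at chr2:26586639-26635634, and strand would not separate that pair.

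**Figure D2:**
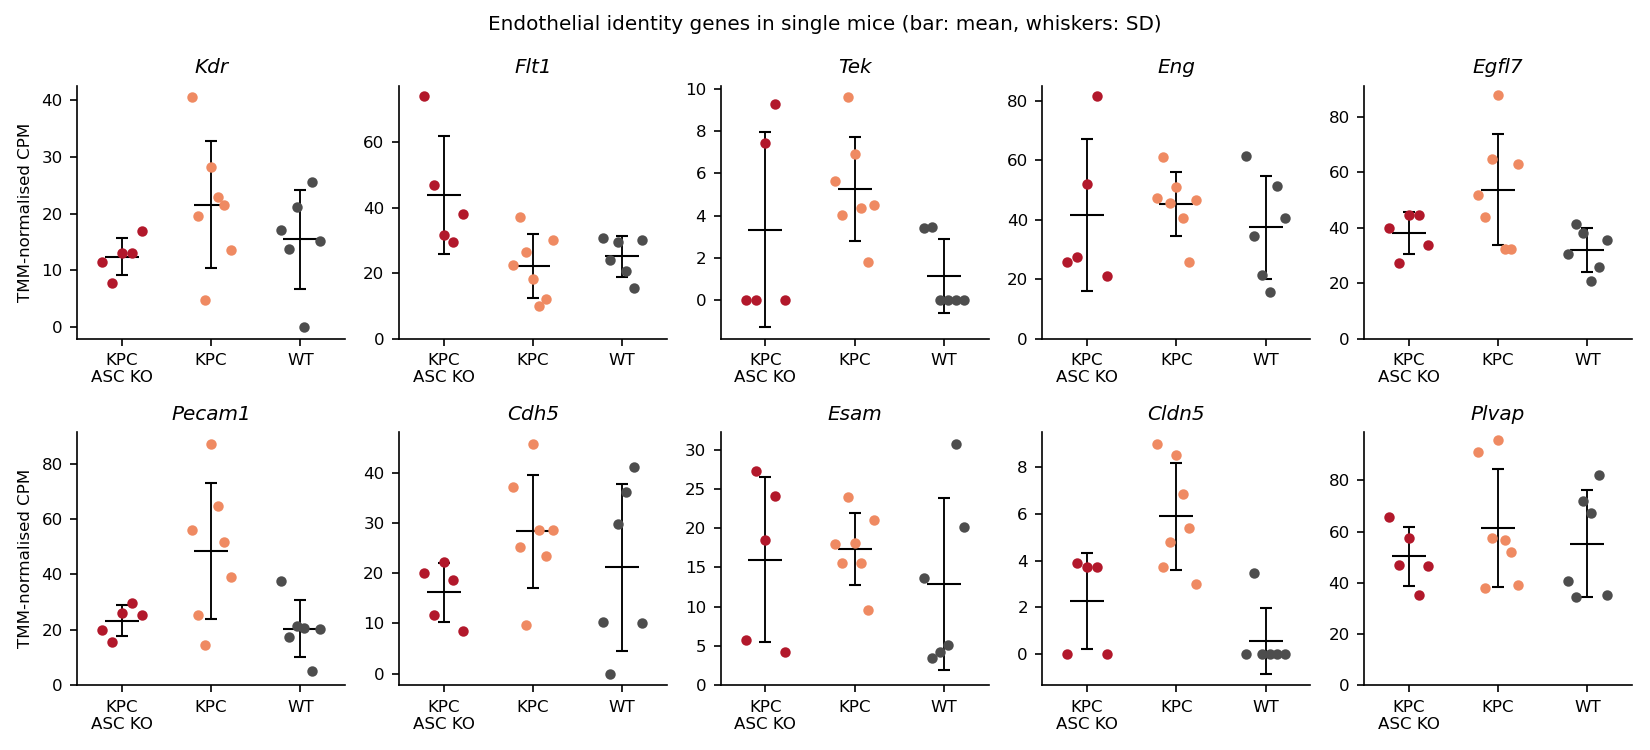
TMM-scaled CPM of each of the 10 endothelial genes in each mouse, for KPC ASC KO, KPC and WT mice; points are mice, bars are means and whiskers are SD. Pecam1 reached 87.1 CPM in KPC mice against at most 37.4 CPM in WT mice, Flt1 reached 74.1 CPM in KPC ASC KO mice against at most 37.3 CPM in KPC mice, and Tek and Cldn5 stayed under 10 CPM in every mouse.

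Between KPC ASC KO and KPC mice none of the 8 tested endothelial genes passed edgeR's test, where 9.42% of all tested genes did, 6.73% higher and 2.69% lower. DESeq2 and limma-voom also called 0 of the 8. Their shares over all tested genes are not given here, so these counts have no background beside them. Before adjustment over all genes, 2 of the 8 had an edgeR p under 0.05, Flt1 at 0.00588 and Pecam1 at 0.00853. So did 1829 of the 6920 tested genes, so 2 of 8 does not stand out from the background. The median log2 fold change was -0.37, against -0.05 over all tested genes. All but Flt1 had estimates at or below 0. This comparison shares its KPC mice with the one above, so the values of both rest in part on the same 7 animals.

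Flt1 was the gene whose estimate lay above 0 with TMM, although not on total counts (-0.13). It measured 74.1, 46.9, 31.5, 29.7 and 38.0 CPM in KPC ASC KO mice 318, 335, 377, 384 and 388, and ran from 9.94 through a median of 22.5 to 37.3 CPM in KPC mice. All 5 KPC ASC KO mice lay above the KPC mean and 3 of 5 above every KPC mouse. The log2 fold change was 0.97 (SE 0.32, edgeR adjusted p = 0.0562). Leaving out KPC mouse 43, 48 or 210, or KPC ASC KO mouse 377 or 384, brought the adjusted p to 0.0173, 0.0440, 0.0460, 0.0498 or 0.0438, and over all 18 such fits it ran from 0.0173 to 0.250. Those KPC mice had the highest Flt1 of their group and those KPC ASC KO mice the lowest, so leaving any of them out widens the difference by construction. Kdr went the other way by estimate, at 11.4, 7.81, 13.0, 13.0 and 16.9 CPM in the same 5 KPC ASC KO mice and 4.80 through 21.6 to 40.4 CPM in KPC mice (-0.84, SE 0.42, edgeR adjusted p = 0.200).

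Pecam1 measured 19.9, 15.6, 26.0, 29.7 and 25.3 CPM in KPC ASC KO mice, which is within the span of the KPC mice, and its log2 fold change was -1.05 (SE 0.37, edgeR adjusted p = 0.0702). Leaving out KPC mouse 43 or 48, the 2 with the lowest Pecam1, brought the adjusted p to 0.0257 or 0.0183. Leaving out low KPC values widens this difference by construction. Over all 18 such fits the adjusted p ran from 0.0183 to 0.185, and it was under 0.05 in these 2 only. None of the 5 KPC ASC KO mice reached the leukocyte sums of KPC mice 40, 89, 145 and 154. Cdh5 averaged 16.2 ± 5.84 CPM in KPC ASC KO (SD, n = 5) and 28.3 ± 11.3 CPM in KPC mice (SD, n = 7), a log2 fold change of -0.76 (SE 0.43, edgeR adjusted p = 0.268). Esam had an estimate near 0, with 15.99 ± 10.6 CPM in KPC ASC KO and 17.4 ± 4.57 CPM in KPC mice (-0.00, edgeR adjusted p = 1.00).

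Eng was spread widely among the KPC ASC KO mice, at 25.6, 27.3, 52.0, 81.6 and 21.1 CPM, against 25.8 through 46.5 to 60.9 CPM in KPC mice. Mice 377 and 384, those with less acinar enzyme RNA, held the 2 highest values, and the difference between groups was -0.04 (SE 0.31, edgeR adjusted p = 0.961). Egfl7 measured 38.0 ± 7.42 CPM in KPC ASC KO and 53.7 ± 19.9 CPM in KPC mice (-0.45, SE 0.27, edgeR adjusted p = 0.292). Plvap measured 50.3 ± 11.6 CPM in KPC ASC KO and 61.4 ± 23.2 CPM in KPC mice (-0.29, SE 0.28, edgeR adjusted p = 0.540). Tek and Cldn5 had 9 and 5 counts over the 5 KPC ASC KO libraries, against 48 and 60 over the 7 KPC libraries. Their pooled ratios per TMM-scaled library size were 1.01 (95% exact interval 0.436 to 2.08) for Tek and 0.449 (0.141 to 1.11) for Cldn5, and neither interval leaves out 1. Per total count they were 0.466 (0.201 to 0.961) for Tek and 0.207 (0.0649 to 0.511) for Cldn5, and both intervals lie below 1. These intervals cover counting error only. Tek had no count in KPC ASC KO mice 318, 335 and 388.

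Scaled to total counts, 5 of the 8 genes were called lower in KPC ASC KO than in KPC mice, where 67.9% of all tested genes were. These were Pecam1 (-2.05), Cdh5 (-1.77), Kdr (-1.85), Plvap (-1.32) and Egfl7 (-1.41) on the log2 scale, and the median of the 8 was -1.36 beside the shift of -1.05 over all genes. Flt1 stood at -0.13 (edgeR adjusted p = 0.730). With total counts from which the acinar enzymes had been taken out, 3 of the 8 were called lower, Pecam1, Kdr and Egfl7, where 18.1% of all tested genes were. The number of endothelial genes called therefore followed the scale, and the estimate of Flt1 lay above those of the other 7 on each.

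**Figure D3:**
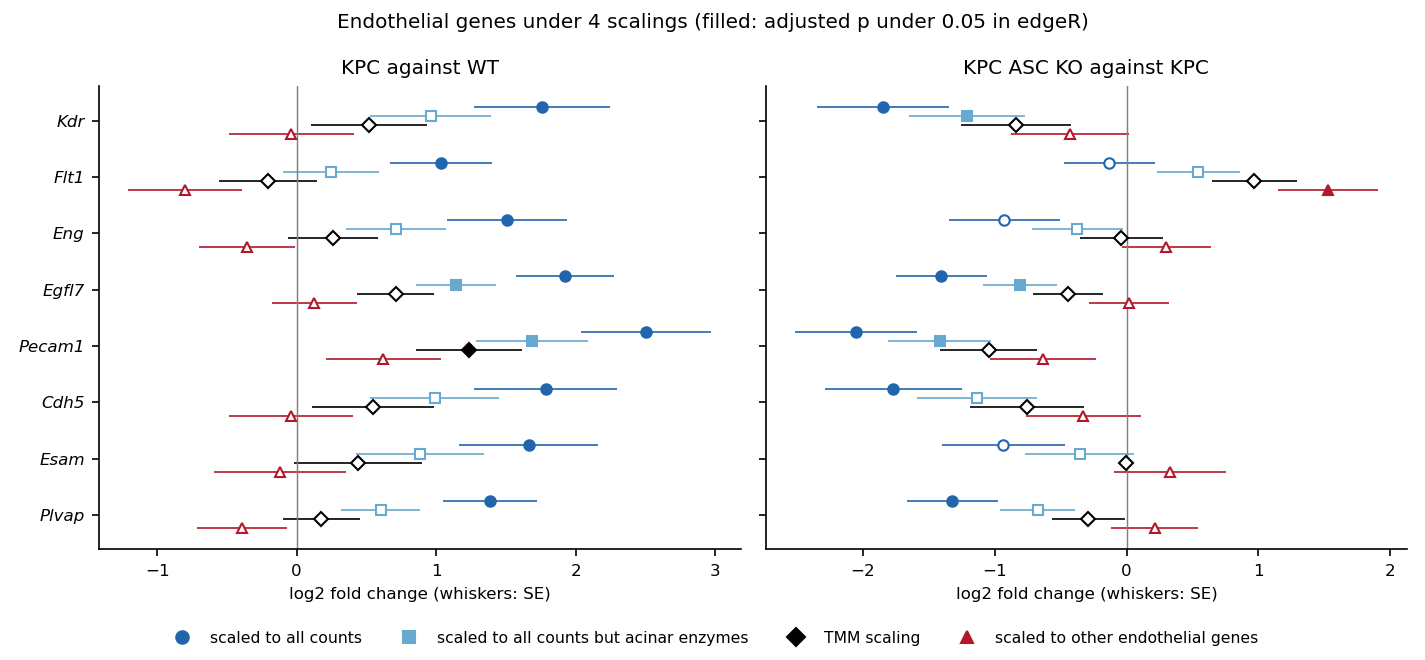
Log2 fold changes with SE of the 8 tested endothelial genes under 4 scalings (TMM, total counts, total counts without acinar enzymes, and other pan-endothelial genes), for KPC against WT and KPC ASC KO against KPC; filled points have an edgeR adjusted p under 0.05. All 8 genes are called higher in KPC than in WT on total counts and 1 of 8 with TMM, and Flt1 is the gene called when KPC ASC KO is set against KPC on the scale of other endothelial genes.

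To compare the 10 genes with the rest of the endothelial transcriptome, libraries were also scaled to 28 other genes that mark most endothelial cells, a scaling chosen after the data had been seen. The 28 genes summed to 76 to 264 counts per KPC ASC KO library, 189 to 1790 per KPC library and 65 to 126 per WT library. The fit takes these sums as known, so their counting error enters neither the SE nor the p on this scale. On that scale none of the 8 genes was called between KPC and WT mice, where 33.5% of all tested genes were, with a median log2 fold change of -0.080. Flt1 was at -0.80 (edgeR adjusted p = 0.124) and Pecam1 at 0.62 (edgeR adjusted p = 0.243). Between KPC ASC KO and KPC mice 1 of the 8 was called, Flt1, higher by 1.53 (SE 0.38, edgeR adjusted p = 0.00614), where 13.6% of all tested genes were called higher, and the median of the 8 was 0.12. Leaving out each mouse in turn gave 1.03 to 1.75 with adjusted p from 0.00259 to 0.115. The call was lost without KPC ASC KO mouse 318, which had the highest Flt1 (1.03, adjusted p = 0.115), and without KPC mice 40, 89, 145 and 154 together (0.98, adjusted p = 0.215). Mouse 318 also had the lowest share of all counts in the 28 genes of any library, at 0.0140%.

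The shares of single genes within the endothelial sum do not depend on a scaling factor. Flt1 took 28.3%, 21.8%, 11.4%, 10.3% and 19.6% of the 10 genes' counts in KPC ASC KO mice 318, 335, 377, 384 and 388. Its share ran from 3.52% through a median of 5.93% to 13.7% in KPC mice and from 5.56% through 12.5% to 14.6% in WT mice. Mice 318, 335 and 388, whose acinar content was like that of WT, were above every KPC and WT mouse, and mice 377 and 384 were inside the range of both groups. Pecam1 took 7.27% to 13.0% in KPC ASC KO, 5.50% to 22.9% in KPC and 1.85% to 15.3% in WT mice, with its highest shares of 22.9%, 21.9% and 19.5% in KPC mice 145, 154 and 89.

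Between the VEGF receptors themselves, Flt1 made up 76.9% of the pooled Flt1 and Kdr counts in KPC ASC KO mice (95% exact binomial interval 67.6 to 84.6%, 80 of 104 counts). The share was 50.5% in KPC mice (45.9 to 55.1%, 241 of 477) and 62.1% in WT mice (48.4 to 74.5%, 36 of 58). These intervals cover counting error only, not the spread between mice. By mouse the share was 86.7%, 85.7%, 70.8%, 69.6% and 69.2% in KPC ASC KO, against 30.2% through 39.1% to 84.6% in KPC and 37.5% through 64.0% to 100% in WT mice, so the groups overlapped. Flt1 has 2 annotated protein-coding transcripts, the shorter with its 3′ end inside the gene at chr5:147635159, and the gene's counts sum both. The membrane and soluble forms therefore cannot be told apart in these counts.

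**Figure D4:**
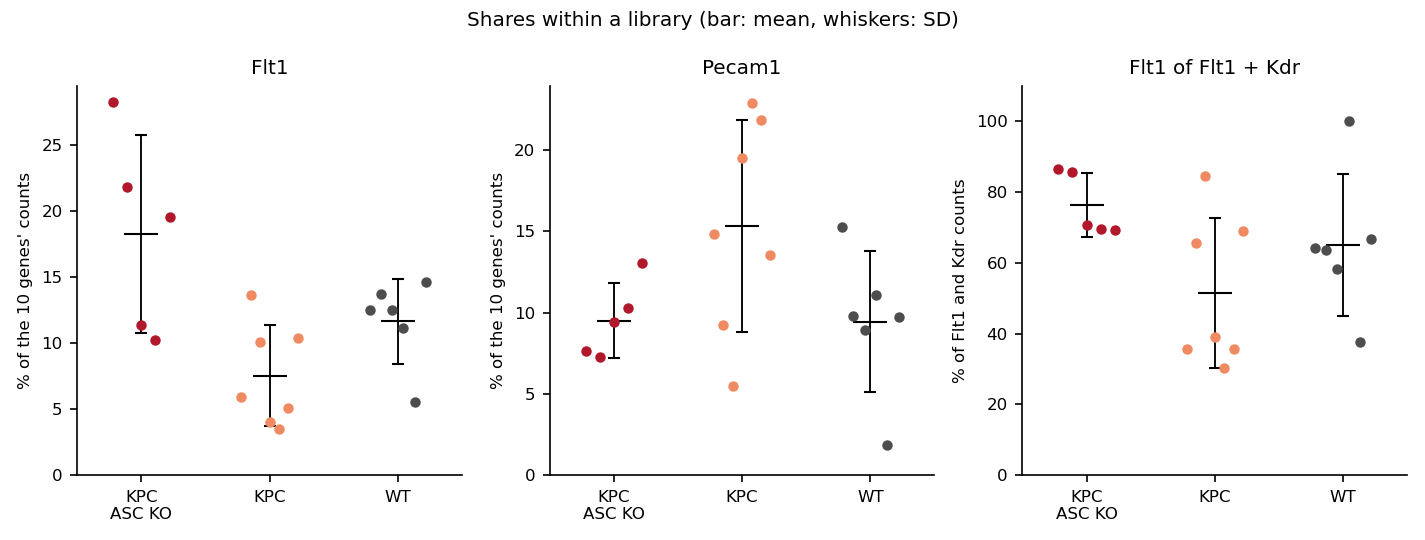
Share of Flt1 and of Pecam1 in the counts of the 10 endothelial genes, and share of Flt1 in the counts of Flt1 and Kdr, in percent for each KPC ASC KO, KPC and WT mouse; points are mice, bars are means and whiskers are SD. Flt1 reached 28.3% of the 10 genes' counts in KPC ASC KO mice and at most 13.7% in KPC and 14.6% in WT mice.

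KPC ASC KO and WT mice did not differ in any endothelial gene by edgeR's test. None of the 6920 tested genes was called in this comparison (0%), with 691 at an unadjusted p under 0.05, 8 called by DESeq2 and 0 by limma-voom. The median log2 fold change of the 8 genes was 0.20, against 0.00 over all tested genes. Flt1 had the largest estimate, 44.0 ± 18.1 CPM in KPC ASC KO (SD, n = 5) and 25.1 ± 6.23 CPM in WT mice (SD, n = 6), with 4 of 5 KPC ASC KO mice above every WT mouse (0.76, SE 0.38, edgeR adjusted p = 0.507). Pecam1 stood at 23.3 ± 5.52 CPM in KPC ASC KO and 20.3 ± 10.3 CPM in WT mice (0.19, SE 0.46, edgeR adjusted p = 0.931).

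The VEGF ligands Vegfa and Vegfb were lower in KPC than in WT mice after TMM scaling. The ligands Vegfc, Vegfd and Pgf did not pass the filter, and Vegfd averaged 8.28 CPM in KPC and 1.99 CPM in WT mice. Of 11 other VEGF pathway genes, 6 were tested, and 2 fell and 0 rose in KPC relative to WT mice. Over all tested genes 15.1% were called lower and 14.8% higher. Vegfb, a ligand of Flt1, measured 29.9 ± 7.28 CPM in KPC (SD, n = 7) and 95.8 ± 30.03 CPM in WT mice (SD, n = 6), with no overlap between 22.5 to 43.2 CPM in KPC and 70.7 to 149 CPM in WT (-1.69, SE 0.23, edgeR adjusted p = 4.78e-05). Vegfa, which binds both receptors, measured 31.7 ± 14.2 CPM in KPC and 71.4 ± 33.3 CPM in WT mice (-1.21, SE 0.33, edgeR adjusted p = 0.00889). Both calls depend on the scale: on total counts the differences were -0.47 for Vegfb (edgeR adjusted p = 0.126) and -0.035 for Vegfa (edgeR adjusted p = 0.922). Without KPC mice 40, 89, 145 and 154, Vegfb kept its call (-1.64, edgeR adjusted p = 0.00236) and Vegfa lost it (-0.66, edgeR adjusted p = 0.213). Nrp1, a VEGF co-receptor, and Hif1a, a transcription factor of the hypoxia response, did not pass, at 1.05 (edgeR adjusted p = 0.0666) and 0.72 (edgeR adjusted p = 0.0826).

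In KPC ASC KO mice Vegfb was higher than in KPC mice. It measured 71.2, 66.4, 37.1, 51.9 and 84.4 CPM in KPC ASC KO mice 318, 335, 377, 384 and 388, against at most 43.2 CPM in KPC mice (1.03, SE 0.24, edgeR adjusted p = 0.0121), so that mouse 377 alone overlapped the KPC mice. The highest values were those of mice 318, 335 and 388, as for the share of Flt1 and of acinar enzymes. Vegfa measured 63.6 ± 26.1 CPM in KPC ASC KO (SD, n = 5) and 31.7 ± 14.2 CPM in KPC mice (SD, n = 7), with an adjusted p = 0.0564 by edgeR. Without KPC mice 40, 89, 145 and 154 the call of Vegfb was lost (0.998, edgeR adjusted p = 0.189). On total counts both differences were near 0, at -0.033 for Vegfb and -0.0095 for Vegfa.

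Of 28 other markers shared by most endothelial cells 11 were tested, and 2 were called higher and 0 lower in KPC than in WT mice, with a median log2 fold change of 0.55. Over all tested genes 14.8% were called higher and 15.1% lower, so 2 of 11 is near that share. Since 10 of the 11 passed the filter only with the help of the KPC libraries, neither count nor median is support for a rise of the list. Ramp2, a partner of the adrenomedullin receptor in endothelium, measured 59.6 ± 30.7 CPM in KPC (SD, n = 7) and 20.3 ± 8.18 CPM in WT mice (SD, n = 6), above every WT mouse in all 7 KPC mice (1.56, SE 0.38, edgeR adjusted p = 0.00407). Cd93, which endothelial and myeloid cells carry, measured 26.9 ± 7.96 CPM in KPC and 8.41 ± 7.89 CPM in WT mice (1.73, SE 0.43, edgeR adjusted p = 0.00463). Rasip1 did not pass, at 1.12 (edgeR adjusted p = 0.110), nor did Vwf, the gene of von Willebrand factor, at 1.03 (edgeR adjusted p = 0.122). Cd93 had 28 counts over the KPC ASC KO libraries, 278 over the KPC libraries and 11 over the WT libraries, and both called genes were among those 10. Without KPC mice 40, 89, 145 and 154, Cd93 did not pass the filter and Ramp2 stood at 1.04 (edgeR adjusted p = 0.0793), with 0 of 9 tested genes called. In KPC ASC KO relative to KPC mice 0 of 11 were called, where 9.42% of all tested genes were, with a median of -0.47.

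Transcription factors of endothelium, many of which blood cells share, had 7 of 13 tested genes called higher and 0 lower in KPC than in WT mice, beside 14.8% higher and 15.1% lower over all tested genes. Of the 13, 7 passed the filter only with the help of the KPC libraries, Lyl1, Epas1, Mef2c and Fli1 among them, so their calls are descriptions. Lyl1, a factor of blood and endothelium, had 36 counts over the KPC ASC KO libraries, 272 over the KPC libraries and 9 over the WT libraries. The ETS factor Fli1 had 16 counts over the KPC ASC KO, 259 over the KPC and 7 over the WT libraries. On the log2 scale KPC was higher than WT for Lyl1 by 2.004 (edgeR adjusted p = 0.00166) and for Epas1, a hypoxia-inducible factor of endothelium, by 1.08 (edgeR adjusted p = 0.00461). The difference was 1.61 for Mef2c (edgeR adjusted p = 0.00748) and 2.27 for Fli1 (edgeR adjusted p = 0.0212). Without the 4 KPC mice with high leukocyte sums none of 9 tested was called. Lyl1, Fli1 and Ets1, which had been called, did not pass the filter there, while Epas1 stood at 0.90 (edgeR adjusted p = 0.0778) and Mef2c at 0.55 (edgeR adjusted p = 0.371). None of 13 was called in KPC ASC KO relative to KPC mice, beside 9.42% of all tested genes, and the median was -0.69. Since leukocytes express Lyl1, Mef2c and Fli1, the count stands beside the leukocyte list, of which 7 of 8 genes were higher in KPC than in WT mice and 3 of 8 lower in KPC ASC KO than in KPC mice. Over all tested genes 2.69% were lower in KPC ASC KO than in KPC mice. The part of leukocytes in the count of transcription factors was not tested.

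Between KPC ASC KO and KPC mice, 2.69% of all tested genes were called lower and 6.73% higher. Of 4 tested genes of activated and venous endothelium, 1 was lower in KPC ASC KO than in KPC mice and 0 were higher. It was Vcam1, an adhesion molecule for leukocytes, which measured 8.55, 11.7, 11.1, 11.1 and 8.44 CPM in the 5 KPC ASC KO mice, against 14.4 through a median of 38.3 to 53.4 CPM in KPC mice. The groups did not overlap, but the gap between them rests on few counts. Vcam1 had 2 to 6 counts per KPC ASC KO library and 6 in KPC mouse 48, the lowest KPC mouse. A single count in KPC ASC KO mouse 335 is worth 3.91 CPM, more than the gap between 11.7 and 14.4 CPM. The log2 fold change was -1.89 (SE 0.38, edgeR adjusted p = 0.00632), and on the scale of the other endothelial genes it was -1.54 (edgeR adjusted p = 0.0225). Without KPC mice 40, 89, 145 and 154 it was -1.54 with an edgeR adjusted p of 0.189. Between KPC and WT mice 14.8% of all tested genes were called higher in KPC. Against WT mice KPC mice were higher in 2 of 4 tested genes of this list, Icam1 by 1.78 (SE 0.37, edgeR adjusted p = 0.00141) and Vcam1 by 1.40 (SE 0.37, edgeR adjusted p = 0.00697). Both calls were lost without KPC mice 40, 89, 145 and 154, at 1.10 for Icam1 (edgeR adjusted p = 0.0671) and 1.07 for Vcam1 (edgeR adjusted p = 0.136), and that of Vcam1 also on the scale of the other endothelial genes (0.83, edgeR adjusted p = 0.149). Icam1 and Vcam1 too passed the filter only with the help of the KPC libraries, so the calls of both genes are descriptions. Fibroblasts and leukocytes can express both genes, and fibroblast genes summed to 2917 ± 1533 CPM in KPC ASC KO, 3566 ± 942 CPM in KPC and 1807 ± 177 CPM in WT mice; their part in the result was not tested.

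Beside the lists that follow, 14.8% of all tested genes were called higher and 15.1% lower in KPC than in WT mice. In KPC ASC KO relative to KPC mice 6.73% were called higher and 2.69% lower. Of the lymphatic list, 2 of 3 tested genes were higher in KPC than in WT mice, among them Lyve1, a hyaluronan receptor of lymphatic endothelium that some macrophages also carry. Lyve1 measured 33.8 ± 16.1 CPM in KPC ASC KO (SD, n = 5), 70.2 ± 30.1 CPM in KPC (SD, n = 7) and 23.5 ± 7.91 CPM in WT mice (SD, n = 6). It was higher by 1.57 in KPC than in WT mice (edgeR adjusted p = 0.00195) and fell by 1.01 in KPC ASC KO relative to KPC mice (edgeR adjusted p = 0.0479). Without KPC mice 40, 89, 145 and 154 these differences were 0.91 (edgeR adjusted p = 0.0973) and -0.32 (edgeR adjusted p = 0.739), and 0 of 3 genes of the list were called in either comparison. The list summed to 735 to 895 CPM in those 4 mice and to 242 to 285 CPM in the other 3 KPC mice. Lyve1 made up 71.3 to 113 CPM of the sum in those 4 mice. The other gene called higher in KPC than in WT mice was Ccl21a, by 1.22 (edgeR adjusted p = 0.0296). Without those 4 mice Ccl21a was at -0.27 (edgeR adjusted p = 0.477). On the scale of the other endothelial genes Lyve1 was at -0.63 between KPC ASC KO and KPC mice (edgeR adjusted p = 0.218). Macrophage genes summed to 1478 to 4444 CPM in KPC ASC KO, 3391 to 4300 CPM in KPC and 1419 to 1871 CPM in WT mice, and their part in Lyve1 was not tested. Of the partners of the junction genes 1 of 7 was higher in KPC than in WT mice, Ctnna1 (0.71, edgeR adjusted p = 0.0454). Of the caveolar genes 1 of 4 was higher, Ehd4 (1.13, edgeR adjusted p = 0.0118). Its call was lost without KPC mice 40, 89, 145 and 154 (0.96, edgeR adjusted p = 0.113) and on the scale of the other endothelial genes (0.55, edgeR adjusted p = 0.269), and that of Ctnna1 on that scale (0.21, edgeR adjusted p = 0.635). Of 5 tested partners of the angiopoietin, Notch and TGF-beta pathways, 0 were called. Pericyte and smooth muscle genes split, with Rgs5 higher by 1.03 and Vtn lower (-2.41) among 8 tested. Lyve1, Ehd4 and Rgs5 passed the filter only with the help of the KPC libraries, so their calls are descriptions. Vtn, which encodes the adhesive protein vitronectin, was higher by 1.73 in KPC ASC KO than in KPC mice (edgeR adjusted p = 0.0268), and lost both calls without KPC mice 40, 89, 145 and 154 (-2.10, edgeR adjusted p = 0.0673, for KPC against WT and 1.44, edgeR adjusted p = 0.368, for KPC ASC KO against KPC).

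Within groups the 8 tested genes varied together only in part. Over the 18 mice, as deviations from the group mean on the log2 scale, the correlation of each gene with the mean of the other 7 was highest for Eng at 0.40, followed by Kdr at 0.31, and was 0.01 for Pecam1 and -0.20 for Flt1. The 28 pairs ran from -0.30 to 0.68 with a median of 0.05, and Eng with Esam (0.68) and Cdh5 with Plvap (0.64) stood at the top. The points share libraries and low counts, so these are descriptions without a test. The other genes most like the mean of the 8, at 0.70 to 0.75, included Abhd16a, Tgfbi, Hs6st1, Capns1, Oxct1, Ltbp2, Kdm1a, Usp25 and Tgfbr2. None of these is on any of the endothelial or other cell type lists used.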

How the data were processed

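Poly(A)-primed libraries were made from total RNA of snap-frozen pancreas. Per the labels' protocols, an 8 bp index for the sample and 10 bp of unique molecular identifier (UMI) were added at priming, the pool was amplified by template switching and tagmented, and a cDNA read of 101 bp was taken in the sense direction. The authors deposited 1 table of UMI counts, whole numbers without normalisation, which covers 18 libraries and 25651 genes. Per the submitters' processing notes, the software was R 4.1.2 with limma 3.50.0 and edgeR 3.36.0, and the genome builds named are mm10 and GRCm38. The aligner, the UMI rule and whether strand was used: not given in the sources used here. Groups were taken from the genotype in the labels.

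The deposited counts were fitted in R 4.3.3 by edgeR 4.0.16. The function filterByExpr, at a minimum count of 10, left 6920 genes, each at or above the cutoff in at least 5 libraries, over which libraries were scaled by TMM. A single model without covariates covered the 18 mice of the 3 groups, and each comparison used the robust quasi-likelihood F test. Benjamini-Hochberg adjustment ran over the 6920 genes, and a gene was called at an adjusted p under 0.05. CPM per total count was used beside TMM-scaled CPM. Fold changes are log2, first group over the other. Correlations used log2 CPM with a prior count of 2. Library totals ran from 294077 to 1626977 counts, and 1 count in a WT library was worth 3.40 to 5.16 TMM-scaled CPM. No library repeated another of its group, since the smallest chi-square over its degrees of freedom was 2.35 among 46 pairs. Gene positions came from GENCODE M21 and promoters from RefSeq. The fit was tested on simulated data.

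Alternatives were total counts, total counts without acinar enzymes, relative log expression factors, DESeq2 1.42.0, limma-voom 3.58.1, no filter, only the compared groups, and each mouse left out. After seeing the data, a scaling to other pan-endothelial genes and fits without KPC mice 40, 89, 145 and 154 were added; these 4 were taken for their high leukocyte transcripts. The 10 genes and all lists were chosen with earlier results of these data known. All 10 genes are named; from each other list described, up to 4 genes are named from those with the smallest p between KPC and WT. Genes named as most alike come from the 10 with the highest correlation with the mean of the tested 8, of which 1 is not reported here. Xist, Y-linked and predicted genes were left out.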

Additional observations from a re-analysis of the deposited data

Results flagged for a closer look

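Cldn5 in WT mouse 1197 was marked by a rule on the gap between a value and its nearest neighbour. It measured 3.45 CPM there, which is 1 count, and 0 in the 5 other WT libraries. Over 33 groups of values examined this was the 1 sample so marked. For continuous values chance marks about 1 group in 20, but a single count beside libraries of 0 is always marked. The mark is therefore no sign that mouse 1197 differed.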

How the results depend on the processing

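No paired analysis was possible because the groups share no mouse numbers. Between KPC and WT mice, 1 of 8 endothelial genes was called with TMM, 8 with total counts (median log2 fold change 1.71), 2 with total counts without acinar enzymes (0.92), 0 with limma-voom and 2 with no filter. Without KPC mice 40, 89, 145 and 154, 0 were called, or 5 with total counts (1.48). On the scale of other pan-endothelial genes, 0 were called with all mice (-0.080) and without those 4 (-0.26). Between KPC ASC KO and KPC mice, 0 were called with TMM, 5 with total counts (-1.36), 3 without acinar enzymes (-0.74), 1 with no filter and 1 with total counts without the 4 KPC mice (-1.01). The pan-endothelial scale gave 1 (0.12), and a median of 0.14 without the 4 mice. Between KPC ASC KO and WT mice the median of 0.20 became 0.52 with total counts without the 4 KPC mice, -0.034 on the pan-endothelial scale and -0.011 on that scale without them. RLE factors, DESeq2 and the fits of 2 groups kept every one of these counts within 1.5 times. The causes were not tested, beyond the change of scale itself. With no filter, 2649 of 25651 genes were called between KPC and WT mice and 763 between KPC ASC KO and KPC mice. Where the share over all genes in the same fit is not given, the count of endothelial genes has no background beside it and is a description only.

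Leaving out 1 mouse gave 1 to 2 called genes and medians of 0.23 to 0.66 between KPC and WT, 0 to 2 and -0.47 to -0.17 between KPC ASC KO and KPC, and 0 and 0.03 to 0.34 between KPC ASC KO and WT. Kdr passed the filter in 13 of these 18 fits. Some estimates near 0 changed sign across these fits: between KPC ASC KO and KPC, Esam ran from -0.23 to 0.21 and Eng from -0.44 to 0.12. Between KPC ASC KO and WT, Cdh5 ran from -0.53 to 0.077, Eng from -0.19 to 0.44 and Plvap from -0.24 to 0.017.

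Other estimates changed sign as follows. For KPC against WT, Flt1 became 1.03 with total counts, 0.25 without acinar enzymes, 0.37 without the 4 KPC mice and 1.48 with total counts without them. Plvap became -0.30 without the 4 mice, and Vegfa 0.37 with total counts without them. On the pan-endothelial scale Cdh5 became -0.040, Kdr -0.038, Eng -0.35, Plvap -0.39 and Esam -0.12. On that scale without the 4 mice Pecam1 became -0.27, Cdh5 -0.42, Eng -0.17 and Plvap -0.85. For KPC ASC KO against KPC, total counts gave -0.13 for Flt1, -0.0095 for Vegfa and -0.033 for Vegfb, and without the 4 mice -0.57 for Flt1 and -0.41 for Vegfa. Esam became 0.021 with limma-voom and 0.0061 with only these groups, and Plvap 0.20 without the 4 mice. The pan-endothelial scale gave 0.30 for Eng, 0.21 for Plvap, 0.33 for Esam and 0.017 for Egfl7. Without the 4 mice it gave 0.26 for Pecam1, 0.059 for Cdh5, 0.12 for Eng, 0.67 for Plvap and 0.14 for Esam. For KPC ASC KO against WT, total counts gave 0.014 for Cdh5 and 0.062 for Plvap, also 0.061 for Plvap without the 4 mice, and limma-voom 0.49 for Cdh5. The pan-endothelial scale gave -0.014 for Pecam1 and -0.054 for Eng, and -0.011 and -0.044 without the 4 mice. Depth limits Tek, Cldn5, Esam and Kdr most, with 1 to 22 counts over the 6 WT libraries.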
